A study of Homo sapiens with 5 samples.

Results

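The heterotrimeric G protein subunit genes of HEK293 (a cultured line of human embryonic kidney origin) are described here across 5 libraries. Members were taken by symbol, with earlier results of these data known. The symbols were those of the alpha genes GNAS, GNAL, GNAO1, GNAZ, GNAQ, GNAI1 to GNAI3 and GNA11 to GNA15, the beta genes GNB1 to GNB5, and the gamma genes named GNG with a number or GNGT1 and GNGT2. The deposited table held 28 such genes, 12 alpha, 5 beta and 11 gamma, of 24497 gene rows. GNA14 and GNG13, which the symbols would include, are not analysed here. The row GNB2L1, which encodes the ribosomal scaffold RACK1, is not a G protein beta gene and was not taken.

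The study profiled untreated HEK293 cells, grown in DMEM with glutamine and fetal calf serum, by RNA sequencing that selects the 5' end of each transcript after oligo-dT priming. Each library was amplified from what 100 cells yielded, taken from 1000 cells lysed together. Batch A has 2 libraries and batch B has 3, and the labels give both batches the same line and protocol, and name no treatment or genetic change. Libraries are called here by the number that ends their column, which is 2 or 3 for batch A, and 1, 2 or 3 for batch B. The labels do not say that the libraries came from separate cultures, so each p-value rests on the spread from library to library alone, and that spread may be technical. Everything rests on 1 line, and RNA says nothing of protein.

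A heterotrimeric G protein relays the signal of a receptor in the plasma membrane. The alpha subunit binds GTP when the receptor is active and separates from the beta-gamma dimer, and both parts then act on effectors. Alpha subunits fall into families: Gs stimulates adenylyl cyclase, Gi inhibits it, Gq activates phospholipase C beta, and G12 and G13 form a further family. Gamma subunits carry a lipid at their carboxyl end that holds the dimer at the membrane, a farnesyl group on the products of GNGT1, GNGT2 and GNG11 and a geranylgeranyl group on most others. HEK293 is a common host for the study of transfected receptors, whose signals pass through the subunits the cell makes itself.

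The gene counts of a library came to 373687 in the shallowest, batch B library 1, and to 803168 in the deepest, batch A library 3, and 3124391 over all 5. Levels are given as CPM, the count of a gene divided by all gene counts of its library, spike-ins left out, and scaled to a total of 1000000. Taking 3 counts as the limit of detection, a gene listed at 0 could still reach 8.03 CPM in the shallowest library, 3.74 CPM in the deepest and 0.96 CPM when all are summed. The spike-in rows held 1785 and 2127 counts in batch A but 1 to 19 per library of batch B, and the part of this difference in the batch results was not tested. These limits and all binomial intervals cover counting error only. Of the 6 genes chosen as HEK293 markers, all had a count in every library, led by vimentin (VIM) at 481 ± 52.7 CPM (SD, n = 5), and PAX2 held only 1 to 4 counts. The endothelial marker VWF, the hepatocyte marker ALB, the T cell marker CD3E and the fibroblast collagen COL1A2 had 0 counts in every library. The summed marker levels per library were 4.37 to 24.8 CPM for fibroblasts (5 of 5 genes with a row), 2.49 to 8.69 CPM for blood cells (3 of 5) and 1.46 to 6.95 CPM for hepatocytes (2 of 4). The markers without a row are not analysed here.

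The assay keeps only the 5' end, so the count of a transcript should not grow with its length, and levels of different genes are compared here as CPM without division by length. Longer transcripts can still be lost in reverse transcription, and division by length would not correct that loss but lower their values further. Values per kilobase of the principal transcript are given beside each leading gene only to show the effect of such a division. Lengths are from GENCODE release 29, which is of another build than the counts and was matched by name. For GNAI3 that annotation lists a transcript of 27174 bases, so its value per kilobase is far below its CPM.

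The libraries read from the start of the transcript, so the sequence upstream of the annotated start is shown for 6 beta and gamma genes of different levels, with no alpha gene among them. They are the leading beta genes GNB1 and GNB2, the leading gamma gene GNG5, the gamma gene GNG10, and the farnesylated gamma genes GNGT1 and GNG11, which were low. GNG10 was lower in batch B by the main test, a result lost in some of the alternative settings below. Each line gives the 100 bases before the start on the strand of the gene, 5' to 3', from RefSeq on GRCh38.p14, with every CpG dinucleotide (CG) in capitals. The windows are chr1:1891088-1891187 on the minus strand for GNB1, chr7:100673640-100673739 on the plus strand for GNB2, and chr1:84506582-84506681 on the minus strand for GNG5. Those of GNG10, GNGT1 and GNG11 are chr9:111661505-111661604, chr7:93906467-93906566 and chr7:93921635-93921734, all on the plus strand. The counts were made on another build and carry no positions, so no count is tied to one of these starts.
GNB1: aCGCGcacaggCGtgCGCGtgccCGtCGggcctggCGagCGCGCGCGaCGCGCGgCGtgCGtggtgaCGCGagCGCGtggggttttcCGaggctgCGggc
GNB2: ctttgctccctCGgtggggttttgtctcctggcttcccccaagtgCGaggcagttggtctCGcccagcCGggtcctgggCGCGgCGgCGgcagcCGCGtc
GNG5: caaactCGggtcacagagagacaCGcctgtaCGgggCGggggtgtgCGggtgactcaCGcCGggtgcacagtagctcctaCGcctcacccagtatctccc
GNG10: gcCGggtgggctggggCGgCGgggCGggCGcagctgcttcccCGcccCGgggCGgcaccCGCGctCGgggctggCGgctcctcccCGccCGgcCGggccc
GNGT1: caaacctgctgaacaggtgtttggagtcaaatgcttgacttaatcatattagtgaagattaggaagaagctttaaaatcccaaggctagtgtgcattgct
GNG11: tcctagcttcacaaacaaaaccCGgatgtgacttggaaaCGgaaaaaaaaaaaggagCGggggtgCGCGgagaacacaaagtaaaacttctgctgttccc
The window of GNB1 holds 23 CpG and that of GNG10 holds 15, against 10 for GNB2, 8 for GNG5, 5 for GNG11 and 0 for GNGT1.

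Of the 28 genes, 22 had a count in all 5 libraries (78.6%, against 48.2% of all gene rows) and 18 had at least 3 counts in each (64.3%, against 39.6%). The 4 genes with counts in only some libraries were GNG2, a gamma gene of brain and blood cells, the brain Go alpha gene GNAO1, the neuronal gamma gene GNG3 and GNG8. GNG2 had 2, 1, 2, 6 and 0 counts in batch A libraries 2 and 3 and batch B libraries 1, 2 and 3. GNAO1 had 2 counts in batch B library 2 only, GNG3 had 2 in batch A library 2 only, and GNG8 had 1 in batch B library 1 only, so all 3 lie under 3 counts over all libraries. GNA15, the Gq-family alpha gene of blood cells, and GNGT2, the gamma gene of cone photoreceptors, had 0 counts in every library, which allows up to 0.96 CPM each. For these genes the depth cannot tell a low level from none.

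**Figure D1:**
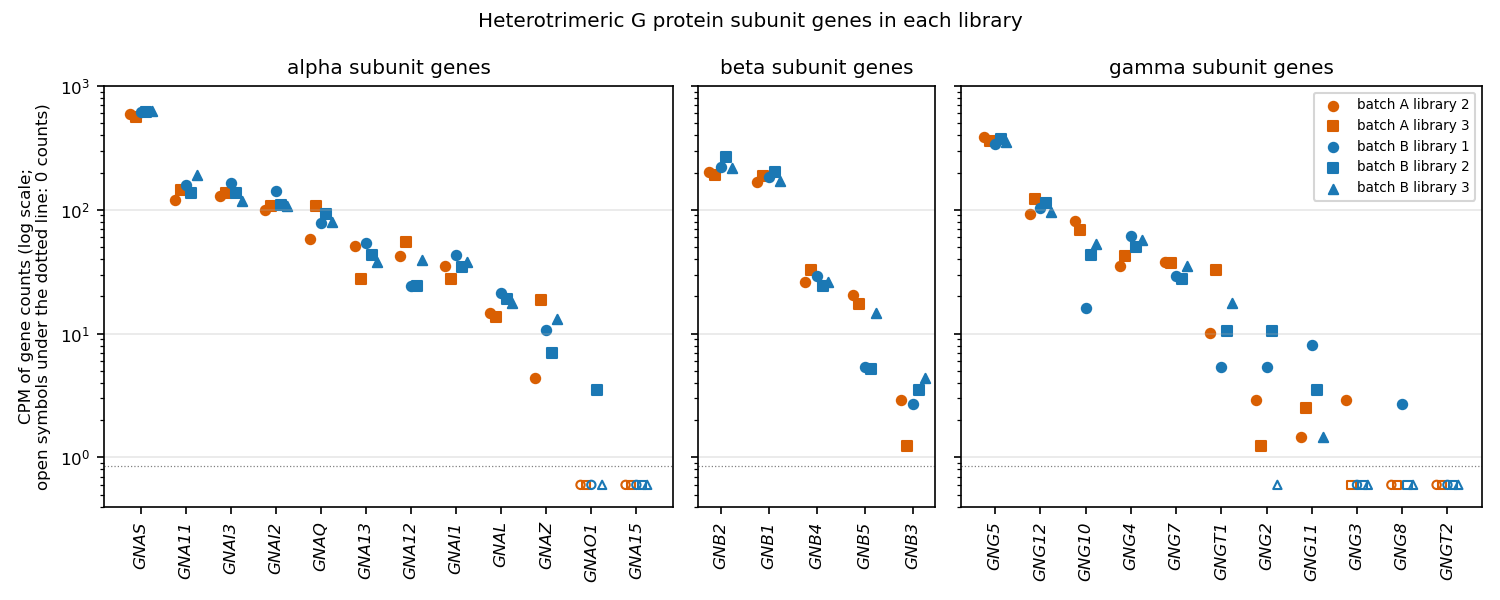
Level of each of the 28 subunit genes in each library, as CPM on a log scale, with batch A in orange and batch B in blue and open symbols for 0 counts. In each class 1 or 2 genes lie well above the rest, and GNA15 and GNGT2 have 0 counts in all 5 libraries.

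Among the alpha genes, GNAS, which encodes the alpha subunit of Gs, had the highest level in every library. It held 406 and 455 counts in batch A libraries 2 and 3 and 230, 353 and 428 counts in batch B libraries 1, 2 and 3, or 602 ± 23.5 CPM (SD, n = 5). The batch A values of 591 and 567 CPM lay just below the batch B values of 615, 613 and 625 CPM. GNAS took 49.0% ± 2.01 of alpha counts (SD, n = 5). The exact 95% binomial interval was 48.0 to 55.1% in batch A library 2, which had the highest share, and 42.4 to 51.5% in batch B library 1, which had the lowest. Per kilobase the share was 69.3% ± 1.83. The GNAS locus makes several transcripts from different starts, among them those of the extra-large alpha subunit and of NESP55, and the single row cannot separate them. Its antisense neighbor GNAS-AS1 held 2 to 8 counts per library. GNAL, which encodes the olfactory relative of Gs alpha, held 8 to 12 counts per library, or 17.3 ± 3.19 CPM, and made up 2.77% ± 0.423 of the Gs family.

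The Gq family and the Gi family followed. GNA11, a Gq-family gene of broad expression, had 121 and 144 CPM in batch A libraries 2 and 3 and 158, 137 and 193 CPM in batch B libraries 1, 2 and 3. GNAQ, its close relative, had 58.2 and 107 CPM in the same batch A libraries, and 77.6, 92.1 and 80.3 CPM in those of batch B. GNA11 was above GNAQ in all 5 libraries and made up 64.5% ± 5.57 of the Gq family (SD, n = 5). For both genes the batches overlapped, and the highest and lowest GNAQ values were the 2 libraries of batch A. In the Gi family GNAI3 was at 137 ± 17.7 CPM, GNAI2 at 114 ± 16.2 CPM and GNAI1 at 35.6 ± 5.61 CPM (SD, n = 5), with shares of 46.0%, 38.1% and 12% of the family. GNAI3 was above GNAI2 in every library by CPM. Per kilobase it was below GNAI2 in every library, which follows from the 27174 bases of its listed transcript. GNAZ, which encodes the pertussis-toxin-resistant Gz alpha, held 3 and 15 counts in the batch A libraries, against 4, 4 and 9 in those of batch B, or 10.8 ± 5.56 CPM.

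GNA13 and GNA12, the genes of the G12 family, were lower. GNA13 was at 42.7 ± 10.5 CPM and GNA12 at 37.0 ± 13 CPM (SD, n = 5). GNA13 was the higher of the pair in 3 of 5 libraries. GNA12 made up 45.3% and 66.7% of their joint counts in batch A libraries 2 and 3 and 31.0%, 35.9% and 50.9% in batch B libraries 1, 2 and 3, so the batches overlapped. Over the alpha class, the Gs family took 50.4% ± 2.01 of counts, the Gi family 24.2% ± 2.09, the Gq family 19.0% ± 2.37 and the G12 family 6.5% ± 1.02. Each family was above the next in every library.

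In the alpha order by mean CPM, GNAS stood above GNA11 in all 5 libraries, by 452 ± 23.7 CPM (mean and SD of the differences). GNA11 and GNAI3 did not differ beyond their spread (13.6 ± 34.8 CPM, GNA11 higher in 3 of 5). GNAI3 stood above GNAI2, GNAI2 above GNAQ and GNAQ above GNA13 in all 5. GNA13, GNA12 and GNAI1 did not differ beyond their spread, at differences of 5.69 ± 21.8 and 1.39 ± 17.7 CPM between neighbors. GNAI1 stood above GNAL in all 5 libraries by CPM and in 0 of 5 per kilobase, and GNAL stood above GNAZ in 4 of 5. An exact test of such differences by changing signs cannot give a p under 0.0625 with 5 libraries, so orders are given as counts of libraries.

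The beta class was shared by a pair of genes. GNB2 had 204 and 190 CPM in batch A libraries 2 and 3 and 222, 266 and 219 CPM in batch B libraries 1, 2 and 3. GNB1 had 169 and 187 CPM in the same batch A libraries, and 185, 203 and 171 CPM in those of batch B. GNB2 lay above GNB1 in all 5 libraries, by 37.4 ± 21.7 CPM, and also per kilobase, although the ranges of the genes overlapped. Their products, beta 2 and beta 1, are closely related propeller proteins found in most tissues. GNB2 took 49.2% ± 3.13 and GNB1 41.0% ± 1.69 of beta counts (SD, n = 5), or 64.0% ± 2.4 and 32.0% ± 1.99 per kilobase.

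The other beta genes were far lower. GNB4 was at 27.7 ± 3.18 CPM and varied little, at 24.3 to 32.4 CPM. GNB5, the most divergent beta, which pairs with regulators of G protein signaling (RGS) of the R7 family rather than with a gamma subunit, held 14 counts in each batch A library, while batch B libraries 1, 2 and 3 held 2, 3 and 10. Of the R7 family and its anchors, RGS9 held 2 counts over all libraries and RGS9BP held 0, and the 6 others on that list are not analysed here. GNB3, the beta of cone photoreceptors and some other tissues, held 1 to 3 counts per library, 9 in all, or 2.88 CPM over all libraries. GNB3 overlaps CDCA3, a gene of cell division with 20 to 81 counts per library, on the opposite strand, and whether counting used the strand is not given in the sources used here. GNB4, GNB5 and GNB3 stood in that order in all 5 libraries by CPM, and GNB5 was above GNB3 in 2 of 5 per kilobase.

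The gamma class had 1 leading gene. GNG5, a broadly expressed gamma gene, held 264 and 291 counts in batch A libraries 2 and 3 and 128, 216 and 242 in batch B libraries 1, 2 and 3, or 384, 362, 343, 375 and 353 CPM. Its mean of 364 ± 16.7 CPM (SD, n = 5) was above every other gamma gene in every library, and the batches overlapped. GNG5 took 57.9% ± 2.27 of gamma counts, with an exact 95% interval of 49.8 to 58.4% in batch A library 3, the lowest, and 52.6 to 66.2% in batch B library 1, the highest. Per kilobase its share was 81.7% ± 3.05. The processed pseudogenes GNG5P1, GNG5P2 and GNG5P3 held 1, 5 and 1 counts over all libraries and may share reads with it. The antisense gene GNG12-AS1 held 1 count.

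GNG12, another gamma gene of many tissues, came next at 106 ± 12.3 CPM, below GNG5 by 258 ± 21.6 CPM (SD of the differences, n = 5). GNG10 was at 52.4 ± 25.0 CPM, GNG4 at 49.2 ± 10.8 CPM and GNG7 at 33.5 ± 4.61 CPM. GNG7 is best known for its part in Golf signaling in the striatum, and GNG4 is known mainly from brain. GNG12 was above GNG10 in all 5 libraries by CPM but in 1 of 5 per kilobase. The order of GNG10 and GNG4 was opposite in the batches, but only narrowly so in batch B libraries 2 and 3. There GNG10 held 25 and 36 counts against 29 and 39 for GNG4. GNG10 was above GNG4 in both batch A libraries (81.5 and 68.5 against 34.9 and 42.3 CPM) and below it in all 3 of batch B (16.1, 43.4 and 52.5 against 61.5, 50.4 and 56.9 CPM). Over all 5 libraries they differed by 3.18 ± 35.1 CPM, and GNG4 was above GNG7 in 4 of 5 libraries.

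GNGT1, the gamma gene of rod transducin, had a count in all 5 libraries. It held 7 and 26 counts in batch A libraries 2 and 3 and 2, 6 and 12 in batch B libraries 1, 2 and 3, or 10.2, 32.4, 5.35, 10.4 and 17.5 CPM. Batch A library 3 stood highest, and the batches overlapped. The transducin alpha genes were lower: the rod gene GNAT1 held 1 count over all libraries and the cone gene GNAT2 held 8, all in batch A library 3. Of 5 photoreceptor markers 2 had a row. PDE6B was at 0 in all libraries, and NRL held 1 and 0 counts in the batch A libraries, against 0, 1 and 3 in those of batch B. The part of such cells in the GNGT1 counts was not tested. TFPI2, which overlaps GNGT1 on the opposite strand in GENCODE, had 0 counts. GNG11, the other farnesylated member with counts, held 1 to 3 per library, or 2.88 CPM over all. The 3 farnesylated genes together made 2.92% ± 1.36 of gamma counts (SD, n = 5).

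**Figure D2:**
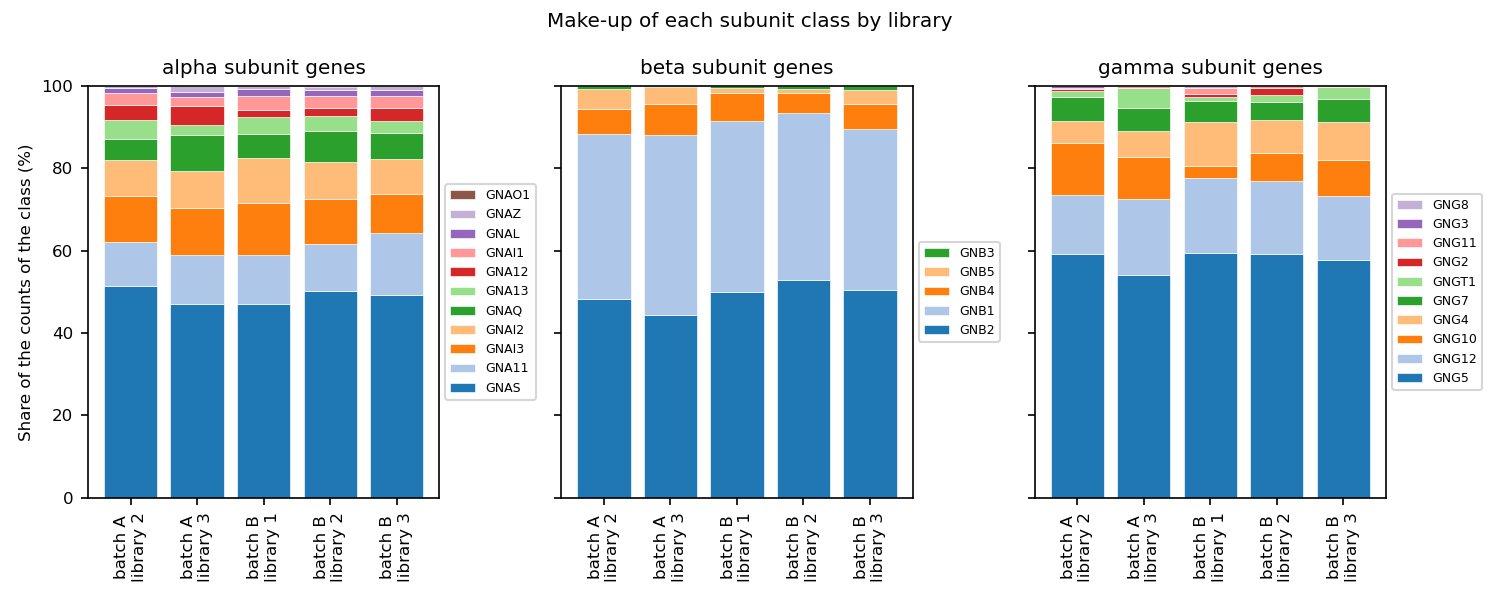
Share of each gene in the counts of its class, stacked to 100% for each library and each class. GNAS holds 46.9 to 51.5% of alpha counts, GNB2 and GNB1 together most of the beta counts, and GNG5 54.1 to 59.5% of gamma counts.

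The summed levels of the classes were compared within and between libraries. Alpha genes summed to 1147 and 1204 CPM in libraries 2 and 3 of batch A, and to 1311, 1220 and 1270 CPM in libraries 1, 2 and 3 of batch B. Beta genes summed to 422 and 428 CPM in the former and 444, 502 and 435 CPM in the latter, and gamma genes to 649 and 670 CPM and 575, 634 and 613 CPM. In every library alpha transcripts were the most and beta transcripts the fewest. There were 0.363 ± 0.0294 beta counts per alpha count and 1.41 ± 0.137 gamma counts per beta count (SD, n = 5). Alpha and beta sums were higher and gamma sums lower in every batch B library than in both batch A libraries. The differences of batch B minus batch A were 91.4, 35.2 and -52.0 CPM for alpha, beta and gamma. Two-sided exact permutation of the libraries, which has 10 splits, gave p = 0.2, 0.3 and 0.2, or 0.3 each when adjusted over the 3 sums, and 2 against 3 libraries allow no p under 0.1.

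The batches were then compared gene by gene, with the test run over all genes that passed the low-count filter, 9215 in all, of which 19 were subunit genes. GNA15, GNAO1, GNAZ, GNB3, GNG2, GNG3, GNG8, GNG11 and GNGT2 did not pass that filter. Of the 19 members 1 was called, lower in batch B (edgeR's quasi-likelihood F test, p adjusted by Benjamini-Hochberg over the 9215 genes). Of all tested genes 4.20% were called and 2.05% were lower in batch B, so the members' share of 5.26% is near the background. The median log2 fold change of batch B over batch A was 0.05 over the 19 members and 0.00 over all tested genes, and the median size of the change was 0.25 and 0.23. Standard errors of the members ran from 0.11 for GNG5 to 0.52 for GNB5, so a modest change of the low genes could not be seen. On simulated data of the same depth the test found 50.7% of genes changed 1.5-fold and 82.1% of those changed 2-fold, drawn from genes with a mean count of at least 20. The simulation gave every gene the same dispersion between libraries, so these rates may not hold for members that varied more.

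The called member was GNG10, which encodes a widely expressed gamma subunit. It held 56 and 55 counts in batch A libraries 2 and 3 and 6, 25 and 36 in batch B libraries 1, 2 and 3, or 81.5 and 68.5 against 16.1, 43.4 and 52.5 CPM. All batch B libraries lay below both batch A libraries, and batch B library 1, the shallowest, lay lowest. GNG10 fell by 0.85 on the log2 scale in batch B (SE 0.24, edgeR adjusted p = 0.0156), a level 1.80-fold lower. Leaving out 1 library at a time, the call was lost without library 2 of batch A (edgeR adjusted p = 0.254) and without library 1 (0.149) or 2 (0.0532) of batch B, at log2 values of -0.70, -0.61 and -0.91. It was kept without library 3 of either batch (0.0339 for batch A and 0.0066 for batch B). It was also lost when trends with GC content and transcript length were removed (0.0669), at a log2 value of -0.72. DESeq2 gave GNG10 no adjusted p and an unadjusted p of 0.00993. The readthrough gene DNAJC25-GNG10 is not analysed here. DNAJC25, the upstream gene of that readthrough, averaged 13.8 ± 7.22 CPM for batch A and 13.8 ± 2.03 CPM for batch B (SD, n = 2 and 3).

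The other 18 tested members did not pass the test. Those with an unadjusted p under 0.05 were GNB2 at a log2 fold change of 0.29 (SE 0.13, edgeR adjusted p = 0.203), GNA12 at -0.66 (SE 0.29, 0.203), GNA11 at 0.33 (SE 0.15, 0.214) and GNG4 at 0.54 (SE 0.26, 0.263). With GNG10 these made 5 of 19 (26.3%), against 16.4% of all tested genes. GNB5 had a log2 fold change of -1.01 (SE 0.52, edgeR adjusted p = 0.310) and GNGT1 one of -0.82 (SE 0.46, 0.371). The leading genes had the narrowest errors: GNAS was at 0.12 (SE 0.11), GNG5 at -0.03 (SE 0.11), GNB2 at 0.29 (SE 0.13) and GNB1 at 0.08 (SE 0.13). Of the 9 tested alpha genes 8 had positive values and of the 6 tested gamma genes 5 had negative values, and only GNG10 among them was called. Of all 9215 tested genes 4648 had positive and 4567 had negative values. Several of the members' values were smaller than their SE, such as GNAQ at 0.02 (SE 0.19) and GNG12 at -0.04 (SE 0.17).

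**Figure D3:**
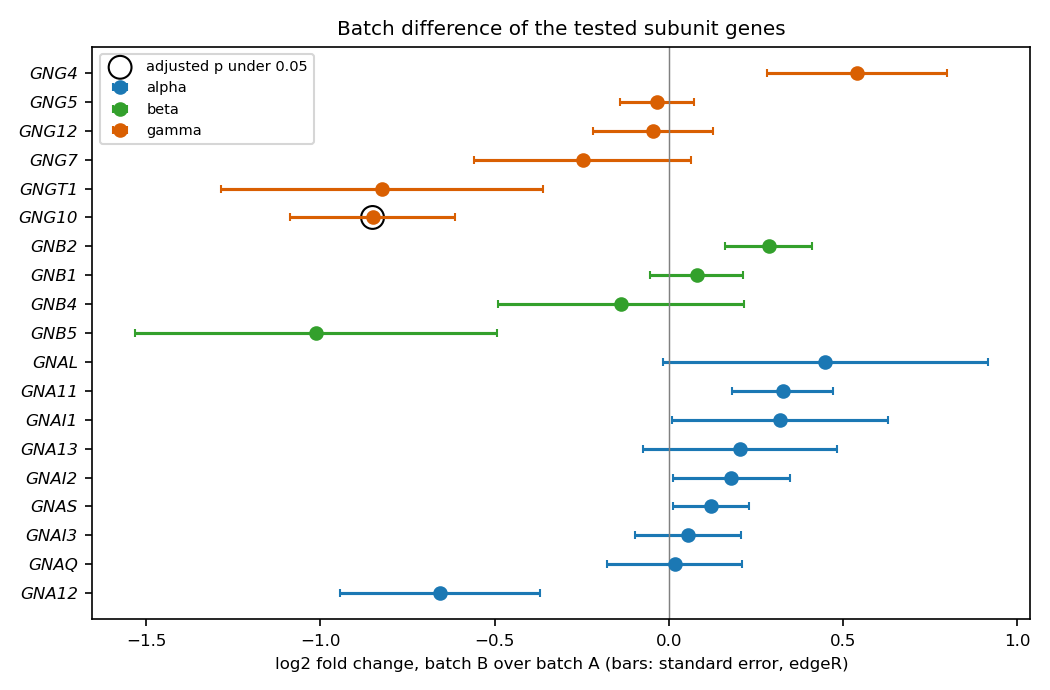
Log2 fold change of batch B over batch A for the 19 tested subunit genes, with standard errors from edgeR as bars and genes grouped by class. Only GNG10, circled, passed the adjusted threshold of 0.05, and GNB5 and GNGT1 have values of similar size with wider errors.

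The spread over the 5 libraries was set against counting error by a chi-square divided by its degrees of freedom, which is 1 for independent counts in proportion to depth. Over the 20 members with at least 20 counts in all, the median was 1.24, against 1.2 over the 10849 gene rows of that size. The statistic was above 2 for 7 of the 20 (35.0%), against 24.8% of those rows. These were GNG10 at 5.55, GNGT1 at 4.38, GNA11 at 3.28, GNAQ at 2.81, GNA12 at 2.63, GNB2 at 2.38 and GNAZ at 2.01. GNB4 at 0.25, GNAL at 0.34, GNG7 at 0.36, GNG5 at 0.42, GNAI1 at 0.54, GNAS at 0.65 and GNB1 at 0.67 varied less than that. Whether identifiers were collapsed to molecules is not given, so the scale of this statistic is uncertain. Counts as high as those of GNAS followed depth: from batch B library 1 to library 3 the median log2 ratio was 0.92 over 331 genes whose counts averaged 200 to 450, and 0.97 over 1951 genes averaging 50 to 150, where depth gives 0.87.

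Partners of the subunits were described from lists of known pathway genes. The lists were chosen with earlier results of these data known, so the shares of calls below only describe these lists. Of 153 genes in 11 lists, 119 had a row and 53 were tested. Of these 3 rose in batch B and 0 fell. Of all tested genes 2.15% rose in batch B, and calls in both directions made 5.66% of the tested list genes against 4.20% of all. The calls were among the protein kinase A subunits (1 of 6 tested) and the receptor kinases and arrestins (2 of 4 tested).

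PRKACA, the catalytic alpha subunit of the kinase that cyclic AMP activates, had 96.1 and 59.8 CPM in batch A libraries 2 and 3 and 134, 130 and 131 CPM in batch B libraries 1, 2 and 3. It rose 1.74-fold (log2 0.80, SE 0.18, edgeR adjusted p = 0.000626). The call was lost without batch A library 3 (log2 0.46, adjusted p = 0.353). Without batch A library 2 the value was 1.18. PRKAR2A and PRKAR1A, regulatory subunits of the same kinase, were at 281 ± 23.8 and 112 ± 5.45 CPM (SD, n = 5) and did not pass the test.

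ADRBK1, which encodes the receptor kinase GRK2 that also binds beta-gamma dimers, had 29.1 and 48.6 CPM in batch A libraries 2 and 3 and 83.0, 81.7 and 52.5 CPM in batch B libraries 1, 2 and 3. It rose 1.80-fold (log2 0.85, SE 0.24, edgeR adjusted p = 0.0192). ARRB2, which encodes the arrestin that binds phosphorylated receptors, had 49.5 and 59.8 CPM in the batch A libraries, against 93.7, 103 and 77.4 CPM in those of batch B, and rose 1.67-fold (log2 0.74, SE 0.21, edgeR adjusted p = 0.0202). For both genes every batch B library lay above both batch A libraries. The ADRBK1 call was lost without library 2 of batch A (edgeR adjusted p = 0.394), without library 1 or 2 of batch B (0.0827 and 0.188) and without a filter on low counts (0.0614). Without batch A library 3 the log2 value of ADRBK1 was 1.27. The ARRB2 call was lost without library 2 or 3 of batch A (0.219 and 0.0765), without library 2 of batch B (0.177), without the filter (0.0697) and with GC and length trends removed (0.0552). In those last 2 settings its log2 value was 0.71 and 0.66. DESeq2 gave none of the 3 genes an adjusted p. GRK6, the most abundant receptor kinase, was at 96.5 ± 15.3 CPM and did not pass the test.

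**Figure D4:**
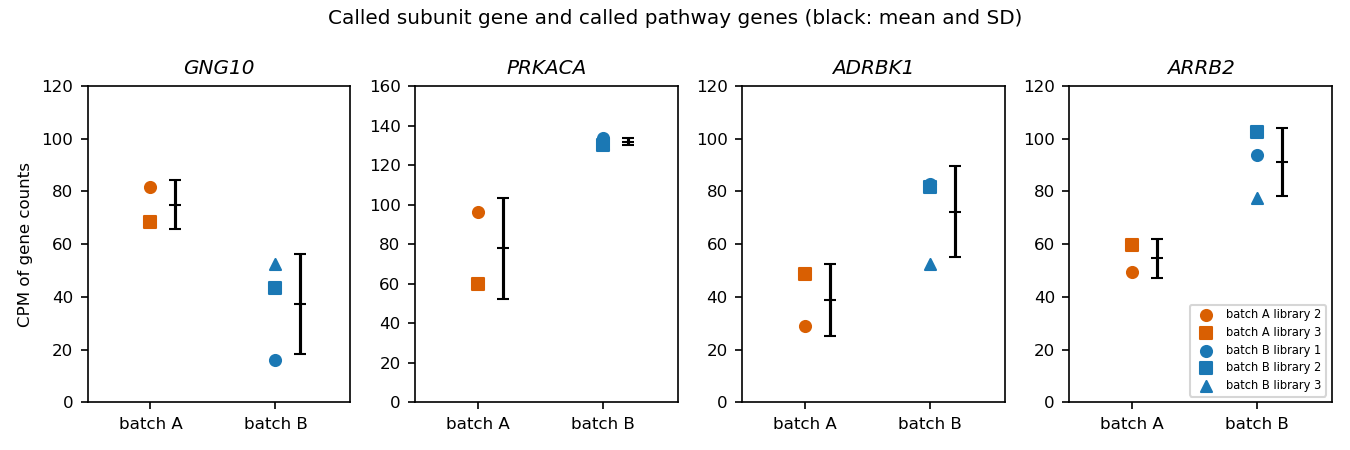
CPM by library of GNG10 and of the 3 called pathway genes PRKACA, ADRBK1 and ARRB2, with the mean and SD of each batch in black (n = 2 and 3). All batch B libraries lie below both batch A libraries for GNG10 and above them for the other 3.

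The remaining lists held no call. Adenylyl cyclases, the effectors of Gs and Gi, were led by ADCY3 at 42.8 ± 4.24 CPM and ADCY9 at 14.1 ± 3.51 CPM, and 5 of 7 with a row had a count in every library. Phospholipase C beta genes, the effectors of Gq, were low, with PLCB3 at 17.5 ± 7.31 CPM and PLCB1 at 9.17 ± 6.03 CPM. The RGS proteins outside the R7 family, which speed GTP hydrolysis, were led by RGS10 at 48.2 ± 4.73 CPM and RGS16 at 39.5 ± 2.56 CPM. All 10 that had a row had a count in every library, though some fell under 3 counts, such as RGS5 with 1 to 4 per library. GPSM1 and GPSM2, which bind Gi alpha in its GDP form, were at 31.8 ± 9.72 and 23 ± 4.22 CPM.

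The highest chaperone and lipid enzyme genes are given next. The CCT complex, which folds beta subunits, was led by CCT7 at 801 ± 26.2 CPM and CCT4 at 775 ± 31.6 CPM. NMT1, which attaches myristate to Gi alpha subunits, was at 151 ± 29.3 CPM, and ICMT, which methylates the prenylated end of gamma subunits, at 145 ± 18.8 CPM. Of 46 receptors with a row, 12 had a count in every library and 14 had 0 counts in all. The highest were the lysophosphatidic acid receptor LPAR3 at 19.6 ± 5.39 CPM and the adenosine receptor ADORA2B at 17.0 ± 9.87 CPM. All values in these paragraphs are SD over n = 5.

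Promoters of the members were described from the RefSeq windows of 250 bases before to 50 after each annotated start, on GRCh38.p14. Of the 28 members 23 matched, with 43 windows, and GNA15, GNAQ, GNAZ, GNB3 and GNGT2 had no entry. Where a gene has several starts, its window with the most CpG dinucleotides was taken, which favors genes with many starts. The 16 matched genes with at least 3 counts in every library had 23 to 48 CpG, with a median of 40. Taken the same way, the richest window had a median of 16 CpG over all 27305 genes with a promoter window, with or without a row of counts. It had a median of 30 over the 7210 genes with at least 3 counts in every library. The GC box GGGCGG, searched on both strands, was in at least 1 window of all 16 genes, against 79.8% of those 7210 genes. Counted by window, it was in 22 of the 43 member windows (51.2%) and in 45.0% of all 35116 windows. The 7 other matched members had 2 to 48 CpG with a median of 9, and 3 of them had a GC box. Over the 4478 other genes with a row and a window, the richest window had a median of 21 CpG, and 63.4% had a GC box.

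Among the 7 other genes, GNAO1 had 48 CpG with 2 counts in all, and GNB5 had 42 CpG with 2 to 14 counts per library. GNGT1 had 2 CpG, the fewest, with 89.0% of all windows at least as rich, and had counts in every library. Among the 16 genes, windows from both ends of their range of 23 to 48 CpG went with high levels. All of these were richer than the median of 16 CpG over the richest windows of all genes. Some were below the median of 30 over genes with at least 3 counts in every library. GNAS had 43 CpG at 599 CPM over all libraries, GNB1 had 48 at 182 CPM and GNA11 had 45 at 150.1 CPM. GNG5 had 23 CpG at 365 CPM and GNB2 had 24 at 217 CPM, and GNA13 had 47 at 41.0 CPM. The promoter windows cover 6 starts for GNAS, with 10 to 43 CpG. These counts are a description, and a motif in a window does not show that a factor binds there.

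**Figure D5:**
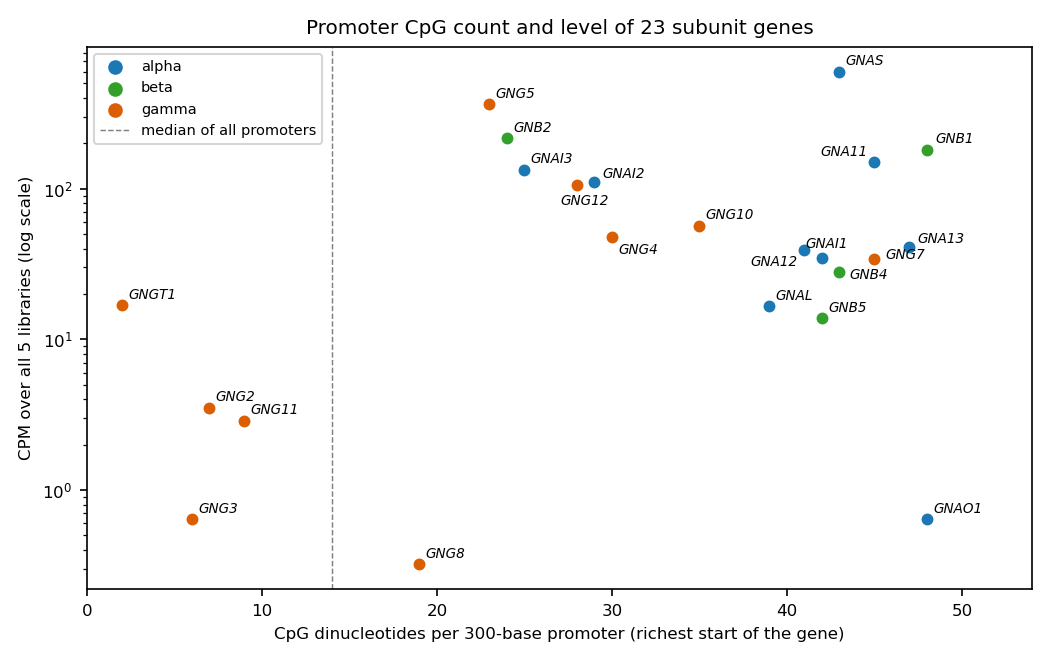
CPM over all 5 libraries (log scale) against the number of CpG dinucleotides in the richest 300-base promoter window of each of 23 matched members, with the median of all windows as a dashed line. GNG2, GNG3, GNG11 and GNGT1 lie left of the line, and GNAO1 lies low at 48 CpG. The line counts every window, not only the richest of each gene.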

How the data were processed

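Per the labels' protocols, a template-switching oligonucleotide with an identifier of 4 N and 4 H bases tagged 5' ends, and 18 cycles of PCR followed. The tools named are the trimmer cutadapt 1.2.1 and the aligner STAR 2.4.0a, and the builds hg19 and GRCh37, per the submitters' processing notes. The authors deposited whole-number counts per gene, not normalized. Not given in the sources used here: the counter, the annotation, use of strand, and whether identifiers were collapsed. Genes that overlap or have near copies may therefore share reads. A column was given its batch from the start of its name, which matches the titles of that batch, and 0 columns were left unused. Members and gene lists were chosen with earlier results of these data known.

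Batches were compared with edgeR 4.0.16 (R 4.3.3, TMM, filterByExpr, quasi-likelihood F test, batch as the only term), with a call at an adjusted p under 0.05. The 52 spike-in rows were left out. The SE was taken as log2 fold change over root F. The test was tested on simulated data over 9125 genes, drawn with the same dispersion for every gene. There it found 66 of 66 genes changed 4-fold with 10 false calls among all, and 0 calls without change. Class sums were compared with exact permutation tests, shares have Clopper-Pearson intervals at 95%, and lengths are of APPRIS principal transcripts with a RefSeq match where present. Alternatives were DESeq2 1.42.0 size factors, library totals, no filter, the DESeq2 Wald test, leaving out each library, thinning, division by length, added pseudogene rows and, chosen after seeing the data, GC and length trends removed by local regression (93.5% of tested and 88.1% of called genes had values). All members are named. Of each list the called genes and the 2 of highest mean CPM were to be named, and other list genes were named after their values were seen. The genes of 1 of the 11 lists are not reported here.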

Additional observations from a re-analysis of the deposited data

Results flagged for a closer look

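GNAT2, the alpha gene of cone transducin, lies outside the symbols taken as members and drew attention because it held 8 counts in batch A library 3 and 0 in each of the other 4 libraries, above the limit of 3 counts. The same library had the highest count of GNGT1, 26. GNAT2 overlaps GNAI3 on the opposite strand in GENCODE, and GNAI3 was at 136 CPM there, within the 118 to 166 CPM of the others.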

How the results depend on the processing

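The number of called members was 1 with DESeq2 size factors, library totals or no filter on low counts, and 0 with the DESeq2 Wald test, which gave 6 of the members, without GNG10, an adjusted p, and 0 with GC and length trends removed. Leaving out a library gave 0 to 1. Calls among all genes came to 387, against 107 with the DESeq2 Wald test, 261 with GC and length trends removed, 259 without a filter, and 138, 152 and 202 without batch A library 2, batch A library 3 and batch B library 2. The log2 fold change of GNG10 stayed negative at -1.15 to -0.61, and those of PRKACA, ADRBK1 and ARRB2 stayed positive, over the alternatives with an adjusted p. Divided by transcript length, the shares of GNAS, GNB2 and GNG5 in their classes were 69.3%, 64.0% and 81.7%, which follows from the lengths. Thinning, added pseudogene rows and leaving out a library moved each of these shares by less than their SD. Members with a count in all libraries were 20 after thinning, 18 at 3 or more counts and 22 to 23 without a library. The beta sum differed by 14.3 CPM without batch B library 2, against 35.2 CPM with it, and no class sum changed direction. No paired analysis was possible because the columns do not carry the replicate numbers of the labels. Depth limits genes under about 1 CPM, and no group has more than 3 libraries.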
